A study of Mus musculus with 6 samples.

Results

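The Tcf7 and Lef1 loci were taken as each gene body plus 100 kb to either side, and 36 of the 32527 regions of open chromatin (ATAC-Seq peaks) in Beko cells lay in them. There were 20 peaks at Tcf7 (ENSMUSG00000000782.8, mm9 chr11:52065873-52096681, minus strand) and 16 at Lef1 (ENSMUSG00000027985.8, mm9 chr3:130813389-130927274, plus strand). Within these windows peaks were taken by position alone, from gene models of GENCODE vM1, with any overlap of at least 1 bp counted. No measured value entered that step, but the loci and motifs were chosen with earlier results of these data known. Every one of the 36 peaks is accounted for, and none was removed by a filter.

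Beko is a mouse progenitor T-cell line, grown as a leukemic pre-T line in which the Notch pathway is constitutively active. ATAC-Seq inserts sequencing adapters with a transposase into DNA that is not wrapped tightly in nucleosomes, so a peak marks an accessible stretch. The 6 libraries comprised 3 of cells given the gamma-secretase inhibitor (GSI) DAPT for 24 h and 3 of cells given the solvent DMSO for the same time, and all came from the unmodified line. The study asked how accessibility relates to binding of the transcription factor RBPJ and to Notch activity. The labels number the replicates but do not say whether they were separate cultures, and a line of this kind stands for 1 transformed cell population.

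The peak list is merged over both treatments and gives nothing but the position of each peak. No level per library was therefore available, and the GSI and DMSO libraries were not compared. The depth of the libraries was not used, so its bearing on which peaks were listed was not examined. No value below carries a replicate error or a test. What follows describes where the accessible regions lie, how wide they are and which sequence motifs they hold. The requirement of detection in 3 of the 6 libraries means that a listed peak may belong to either treatment or to both.

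Tcf7 encodes TCF1 and Lef1 encodes LEF1, closely related DNA-binding proteins of the HMG-box family that recruit β-catenin or Groucho/TLE corepressors to the sequence CTTTGA. Both act in the development of T cells in the thymus, and TCF1 is among the first factors induced when progenitors receive a Notch signal. On DNA the Notch signal is carried by RBPJ, which recognises TGGGAA and recruits either the cleaved Notch intracellular domain or corepressors. Earlier work located a Notch-responsive enhancer upstream of Tcf7. The core TGGGAA is shared with Ikaros, so a match does not name the factor, and the peak list holds no occupancy. The study did map RBPJ binding in Beko cells by ChIP-Seq, but those sites were not used here.

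The sequences around the RBPJ cores are shown first, since the comparison of the loci turns on them. In peaks of the Tcf7 locus that do not lie downstream of the gene or at the Vdac1 promoter, 13 TGGGAA cores were found. Each line below gives the reference sequence of mm9 in 30 bases, read 5′ to 3′ on the strand that carries the core, with the core in capitals and 12 bases to either side.
Tcf7 67.4 kb upstream, chr11:52164091-52164120, minus strand: agtgaacttgttTGGGAAggattagaggaa
Tcf7 56.6 kb upstream, chr11:52153246-52153275, plus strand: gctgagcaagggTGGGAAggaacagagttc
Tcf7 31.2 kb upstream, chr11:52127880-52127909, minus strand: ggtggcgtgtggTGGGAAtactacgtctcg
Tcf7 30.6 kb upstream, chr11:52127293-52127322, plus strand: tttatatggtgcTGGGAAttgaacccaggg
Tcf7 26.6 kb upstream, chr11:52123243-52123272, plus strand: ctgaggggtcctTGGGAAagggttgactga
Tcf7 14.5 kb upstream, chr11:52111153-52111182, minus strand: aggtaggcactaTGGGAAaggaaaggcgga
Tcf7 9.8 kb upstream, chr11:52106445-52106474, plus strand: tgagactggagaTGGGAAgaagaaagcaga
Tcf7 1122 bp upstream, chr11:52097791-52097820, plus strand: tcttccacctctTGGGAAagcagttgaaac
Tcf7 906 bp upstream, chr11:52097575-52097604, plus strand: agctgctcagtcTGGGAAgttgcatccgga
Tcf7 310 bp upstream, chr11:52096979-52097008, plus strand: ggacaggcccacTGGGAAtaatcttaaagg
Tcf7 676 bp downstream of the start, chr11:52095993-52096022, plus strand: caccctcctgctTGGGAAccttagccaagg
Tcf7 intron 2, chr11:52088830-52088859, plus strand: gggctatccagcTGGGAAgcagcgtatcta
Tcf7 intron 2, chr11:52088812-52088841, minus strand: gctggatagcccTGGGAAcgtcacccacca

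At Lef1 the 4 cores below were all that 16 peaks held.
Lef1 95.8 kb upstream, chr3:130717575-130717604, minus strand: gaactgtgctggTGGGAAccctgaactcac
Lef1 intron 3, chr3:130819282-130819311, minus strand: gaggcgtgggacTGGGAAcaggcaactaat
Hadh intron beyond Lef1, chr3:130941035-130941064, plus strand: aaagacgacagcTGGGAAgtcagatgtggc
Hadh exon beyond Lef1, chr3:130949233-130949262, plus strand: caaggtaccaacTGGGAAggtctttgaaat

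None of these cores was preceded by CG or TG, the bases that make the high-affinity forms CGTGGGAA and TGTGGGAA. The base directly before the core was G in 4 of the 20 cores in peaks at Tcf7 and in 1 of the 4 at Lef1. No share over the cores of all peaks was counted for this base, so it is not given as a trait of the loci. Of all 24 cores in peaks, 3 shared bases with another core searched. The intronic core at chr11:52088842-52088847 shared 2 bases with the E-box CAGCTG, as did the core in the Hadh intron, and the core 31.2 kb upstream of Tcf7 shared 1 base with the RUNX core TGTGGT. Here and below, E-box means CAGCTG alone, and other E-box forms were not counted.

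Peaks at Tcf7 were closer together than at most genes, and those at Lef1 were moderately so. The Tcf7 window spanned 230.8 kb and held 8.67 peaks per 100 kb, which was above 97.5% of 22380 protein-coding genes treated in the same way. The Lef1 window spanned 313.9 kb, because the gene itself is 113.9 kb long against 30.8 kb for Tcf7, and held 5.10 peaks per 100 kb, above 81.6% of coding genes. The median coding gene had 2.36 peaks per 100 kb, with quartiles of 0.50 and 4.39. Windows of neighbouring genes overlap, so these ranks are a description and not independent observations. Peaks covered 13161 bp or 5.70% of the Tcf7 window, and 11056 bp or 3.52% of the Lef1 window.

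Widths were like those of the whole list. At Tcf7 they ran from 280 to 1394 bp with a median of 533.5 bp, and at Lef1 from 320 to 1250 bp with a median of 642.5 bp, against a median of 551 bp over all peaks. Peaks wider than 1 kb numbered 3 of 20 at Tcf7 and 2 of 16 at Lef1, beside 14.7% of all peaks. These were the Vdac1 promoter, the peak 31.1 kb upstream of Tcf7 and the intronic peak at the start of A630014C17Rik, and at Lef1 the peak in intron 11 and the Hadh promoter. Neighbouring peaks lay a median of 4807 bp apart at Tcf7 and 9843 bp apart at Lef1, with longest gaps of 21833 and 50030 bp.

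**Figure D1:**
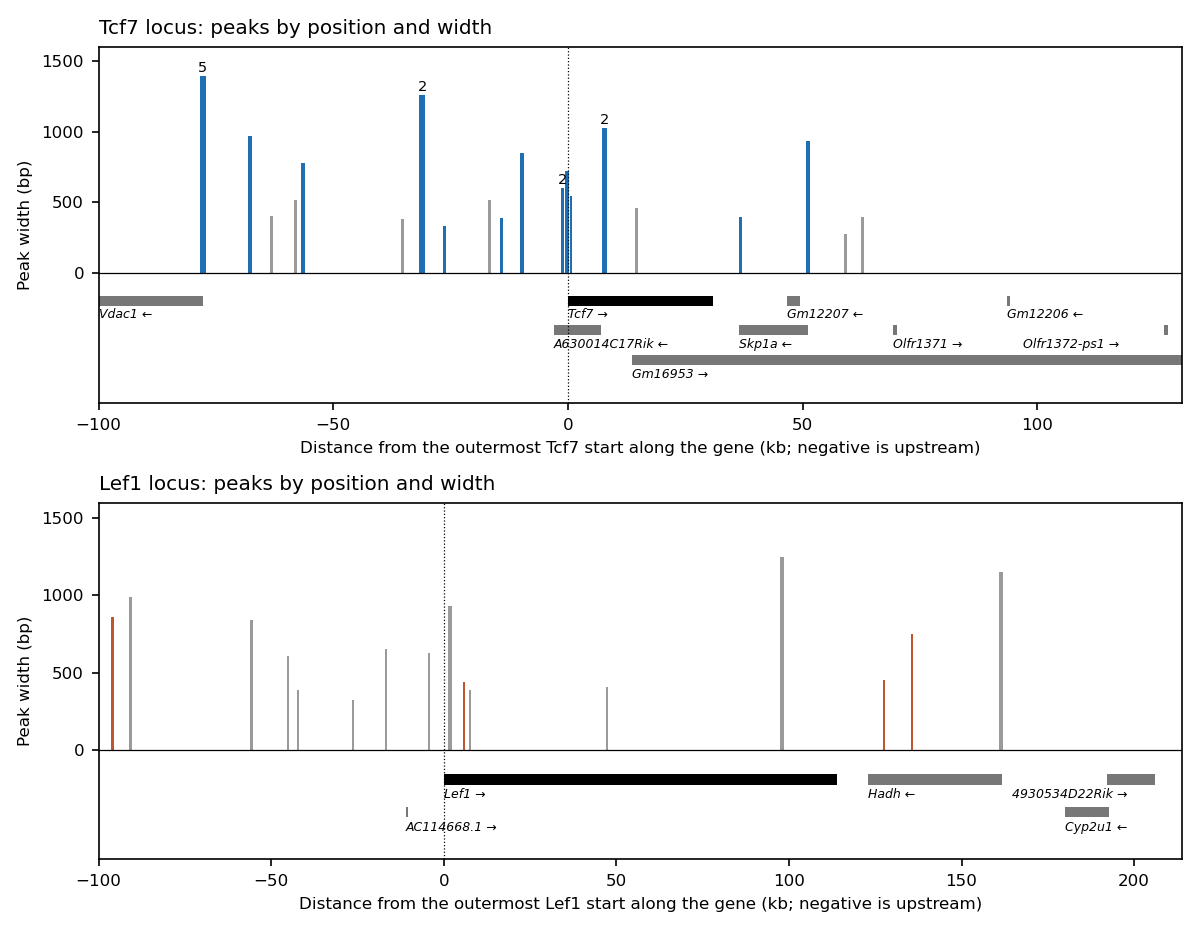
Peaks in the Tcf7 window (top) and Lef1 window (bottom). The x axis is the distance in kb from the outermost annotated start along the gene and the y axis is the width of each peak in bp. Each bar is 1 peak, drawn to scale but at least 0.6 kb wide, coloured where it holds TGGGAA and grey where it does not, with the number of cores above bars that hold 2 or more. Bars under the axis are annotated genes with a start in the window (black, the named gene), and arrows give the strand relative to it. Coloured bars are 13 of 20 at Tcf7 and 4 of 16 at Lef1.

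**Figure D2:**
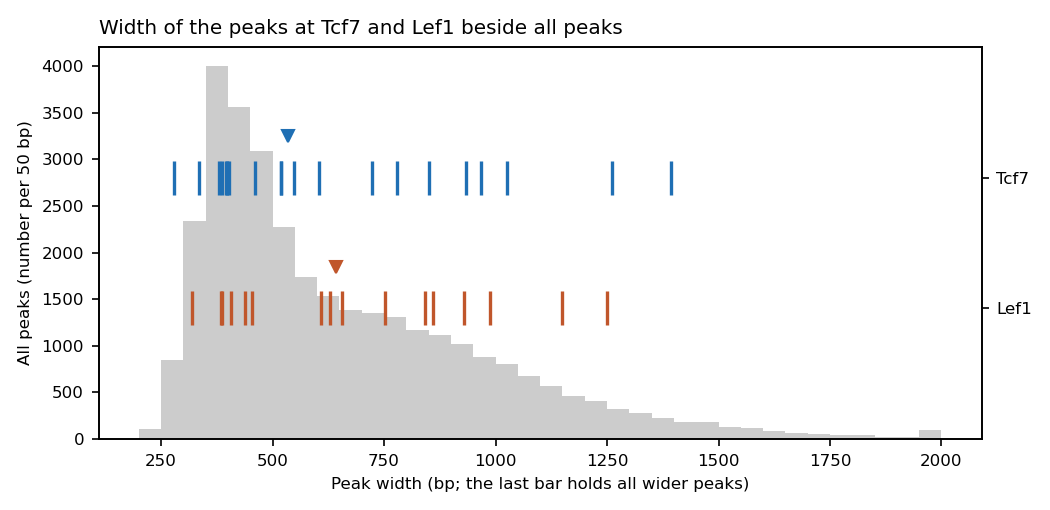
Width in bp (x axis) of all 32527 peaks, as grey bars of 50 bp counted on the left axis, and of each peak at Tcf7 and Lef1, as coloured ticks on the rows named at the right. Triangles mark the medians of 533.5 bp at Tcf7 and 642.5 bp at Lef1.

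At the Tcf7 promoter 3 separate peaks lay side by side, and all 4 annotated starts of the gene were in or within 61 bp of 1 of them. The peak at chr11:52095807-52096354 (548 bp) covered the start of transcript Tcf7-001 at 52096073 and ended 61 bp short of the start of Tcf7-202 at 52095746. The peak at chr11:52096523-52097244 (722 bp) covered the outermost start, that of Tcf7-201 at 52096681, and lay 7 bp from the start of Tcf7-002 at 52096516. A peak further upstream, at chr11:52097542-52098144 (603 bp), covered no start. Only 168 and 297 bp separated the 3 peaks, and together they formed 1 run of 2338 bp.

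The 3 promoter peaks differed in base composition. The one over the outermost start had a GC content of 67.7%, an observed to expected CpG ratio of 0.91 and 7 copies of the SP core GGGCGG, and was CpG-rich, here meaning a ratio from 0.6 upwards with GC from 50% upwards. Its neighbours had ratios of 0.56 and 0.59, just below that limit. Across the list 26.1% of peaks were CpG-rich, and 3 of 20 at Tcf7 and 3 of 16 at Lef1 were. Each Tcf7 promoter peak held TGGGAA, with 1, 1 and 2 cores from inside the gene outwards. A core was common in peaks of like width, of which 40.9%, 49.2% and 43.7% held TGGGAA, in the same order. As many as the 2 cores of the peak furthest upstream were present in 11.5% of peaks of its width. The 250 bases before the outermost start are given on the minus strand, the coding strand of Tcf7, with SP cores (GGGCGG or CCGCCC) and the single CTTTGA in capitals.
Tcf7 promoter, chr11:52096682-52096931, minus strand: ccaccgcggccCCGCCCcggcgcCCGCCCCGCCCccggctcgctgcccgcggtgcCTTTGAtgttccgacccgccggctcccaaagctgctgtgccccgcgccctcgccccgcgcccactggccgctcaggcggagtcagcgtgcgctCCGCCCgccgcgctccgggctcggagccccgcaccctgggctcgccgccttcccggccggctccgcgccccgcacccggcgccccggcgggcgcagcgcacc

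At Lef1 the annotated 5′ end was not covered. The outermost start at 130813389, shared by transcripts Lef1-001, Lef1-004 and Lef1-006, was 1355 bp from the nearest peak. That peak, at chr3:130814744-130815673 (930 bp), lay in intron 1 of Lef1-001 and ended 42 bp before the start of Lef1-002 and Lef1-003 at 130815715 and 51 bp before that of Lef1-005 at 130815724. Thus 2 of 3 distinct Lef1 starts had a peak within 1 kb and 0 were inside a peak, whereas at Tcf7 2 of 4 were inside a peak. The first exon of Lef1-001, 130813389 to 130814596, held no peak.

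The intron 1 peak of Lef1 was CpG-rich (GC 61.1%, CpG ratio 0.86), held 3 SP cores and 2 E-boxes, and had neither TGGGAA nor TGAGAA. The nearest peak upstream of the gene, at chr3:130808859-130809487 (629 bp, 4.2 kb before the outermost start), was also CpG-rich (GC 60.6%, ratio 0.75) and had 3 SP cores and 2 TGAGAA cores. The gap between them, 5256 bp, contains the outermost start. The 250 bases before the start at 130815715 are given below, with the E-box CAGCTG and the SP core in capitals.
Lef1 intron 1, chr3:130815465-130815714, plus strand: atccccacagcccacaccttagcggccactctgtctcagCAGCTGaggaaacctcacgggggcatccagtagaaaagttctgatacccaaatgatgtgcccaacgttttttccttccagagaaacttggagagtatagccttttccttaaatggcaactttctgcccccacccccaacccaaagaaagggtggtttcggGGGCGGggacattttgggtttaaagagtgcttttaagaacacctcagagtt

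Of the peaks in the windows, 7 of 20 at Tcf7 and 2 of 16 at Lef1 were within 1 kb of an annotated start of any gene, beside 35.4% of all peaks. At Tcf7 these included the start of Vdac1, a mitochondrial outer membrane channel, that of Skp1a, a subunit of SCF ubiquitin ligases, and those of the non-coding genes A630014C17Rik and Gm16953. The starts of Olfr1371, Olfr1372-ps1, Gm12206 and Gm12207 had no peak within 1 kb. At Lef1 only Hadh, an enzyme of fatty acid oxidation, had a promoter peak among the neighbours, and AC114668.1, Cyp2u1 and 4930534D22Rik had none. A peak within 1 kb of a start was found for 46.9% of all coding genes.

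The Tcf7 gene body contained 2 further peaks, both in intron 2 of Tcf7-001, which separates exon 2 from exon 3. The larger, at chr11:52088452-52089477 (1026 bp, wider than 86.6% of all peaks), ended 80 bp before the start of A630014C17Rik, which runs antisense through the first part of the gene and past its promoter. It held 2 TGGGAA, 3 E-box and 2 RUNX cores. Among 3248 peaks of like width (within 10%), 21.6% had as many TGGGAA cores and 5.42% had as many E-boxes. The smaller, at chr11:52081987-52082447 (461 bp), lay 569 bp inside the start of the lincRNA Gm16953 and held 2 E-boxes and no RBPJ core. No peak lay over exons 3 to 10 of Tcf7-001.

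The 2 cores in the larger intronic peak were 12 bases apart and pointed away from each other. RBPJ dimers bind pairs that face each other at 15 to 17 bp, so this was not counted as a pair. The stretch around them is shown with TGGGAA (or TTCCCA on the other strand) and the overlapping CAGCTG in capitals, where the run CAGCTGGGAA is an E-box and an RBPJ core that share 2 bases.
Tcf7 intron 2, chr11:52088815-52089114, plus strand: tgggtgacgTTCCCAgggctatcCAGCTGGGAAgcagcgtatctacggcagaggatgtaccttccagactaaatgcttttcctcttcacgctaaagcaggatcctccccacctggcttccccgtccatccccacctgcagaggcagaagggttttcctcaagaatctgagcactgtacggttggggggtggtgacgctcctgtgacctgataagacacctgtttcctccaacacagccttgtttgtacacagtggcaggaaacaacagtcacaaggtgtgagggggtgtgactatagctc

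The Lef1 gene body contained 5 peaks for its 113.9 kb. Besides the peak before the middle start, 3 lay in intron 3 of Lef1-001, at chr3:130819024-130819462 (439 bp), chr3:130820782-130821166 (385 bp) and chr3:130860361-130860766 (406 bp). The first of these carried the only TGGGAA found in a peak of the gene body, with 2 TGAGAA cores. All 3 held 1 RUNX core each and at least 1 TGAGAA core. The first 2 lay 1319 bp apart and joined the intron 1 peak in a run of 3 peaks over 6423 bp, and the next was 39194 bp on.

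The widest Lef1 peak, at chr3:130910797-130912046 (1250 bp), was in intron 11, 98.0 kb from the outermost start and 50030 bp from its nearest neighbour on the 5′ side. It held 2 TGAGAA, 3 RUNX, 2 ETS and 2 SP cores and no TGGGAA, although 61.4% of like-width peaks held TGGGAA. As many RUNX cores were present in 4.86% of the 1871 peaks of like width. A stretch of 300 bases towards its 3′ end is shown, with 2 TGAGAA, 1 RUNX core and 1 ETS core (AGGAAGT) in capitals, on either strand.
Lef1 intron 11, chr3:130911691-130911990, plus strand: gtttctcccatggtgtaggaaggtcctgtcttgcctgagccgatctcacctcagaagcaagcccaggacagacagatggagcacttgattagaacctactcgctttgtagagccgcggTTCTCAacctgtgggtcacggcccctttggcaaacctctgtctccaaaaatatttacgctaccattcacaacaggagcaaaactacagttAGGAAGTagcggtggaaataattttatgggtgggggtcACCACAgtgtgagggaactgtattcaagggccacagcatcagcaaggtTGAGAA

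Upstream of Tcf7, in the region where the Notch-responsive enhancer was located, 10 peaks lay more than 1 kb from every start. They fell in 3 groups with gaps of at most 5 kb inside each. The group nearest to the gene had peaks at chr11:52105995-52106845 (851 bp), chr11:52110828-52111214 (387 bp) and chr11:52113120-52113638 (519 bp), which were 9.7, 14.3 and 16.7 kb upstream. The middle group, over 9345 bp, had peaks at chr11:52122969-52123303 (335 bp), chr11:52127154-52128415 (1262 bp) and chr11:52131934-52132313 (380 bp), which were 26.5, 31.1 and 35.4 kb upstream. The outer group, over 12216 bp, had peaks at chr11:52152709-52153487 (779 bp), chr11:52154481-52154999 (519 bp), chr11:52159807-52160208 (402 bp) and chr11:52163958-52164924 (967 bp), from 56.4 to 67.8 kb upstream. All 10 were intergenic, and beyond them came the Vdac1 promoter at chr11:52173800-52175193, the widest of the window.

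Each of these 10 peaks held TGGGAA or TGAGAA, beside 61% of the 21005 peaks of the list more than 1 kb from every start. TGGGAA was present in 6, beside 39.2% of those peaks, and the other 4 held TGAGAA alone, beside 21.7%. None was CpG-rich. The outermost of the 10 held 6 SP cores with a CpG ratio of only 0.23. These were not all separate, since the matches starting at 52164523, 52164528, 52164533 and 52164538 overlap in a short repeat.

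The peak 31.1 kb upstream stood apart from its neighbours in width. At 1262 bp it was wider than 94.5% of all peaks, and the peaks to either side were 335 and 380 bp. It held 2 TGGGAA, 3 TGAGAA, 5 CTTTGA, 2 GATA and 3 RUNX cores, and no E-box, ETS or SP core. Among 1804 peaks of like width, 24.3% had 2 or more TGGGAA cores and 4.99% had 3 or more RUNX cores, whereas only 0.277% had 5 or more CTTTGA cores. The neighbours of 335 and 380 bp held 2 CTTTGA cores each, a number reached by 3.6% and 4.3% of peaks of their widths. TGGGAA occurred 1.58 times per kb in the wide peak, against 2.99 and 0.00 times in these neighbours. As the peak was picked out for its position and width, these shares describe it and are not a test.

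The 2 TGGGAA cores of this peak differed in their surroundings. The core at chr11:52127892-52127897 was 110 bp from the centre of the peak, and both its 30 bases and the inner 18 occurred once in the genome. The core at chr11:52127305-52127310 was 477 bp from the centre, its 30 bases occurred 2 times, and its inner 18 bases occurred 330 times, so it sits in repeated sequence. In the other 22 cores in peaks at the 2 loci the 30 bases occurred once and the inner 18 at most 7 times. The 2 cores faced each other with 581 bases between them. A stretch of 300 bases near the centre of the peak, with 4 of its RBPJ and TCF/LEF cores, is shown with the cores of either strand in capitals. In order they are TGAGAA, a TCF/LEF core, a second TGAGAA and TGGGAA, of which the last 3 are on the minus strand.
Tcf7 31.1 kb upstream, chr11:52127614-52127913, plus strand: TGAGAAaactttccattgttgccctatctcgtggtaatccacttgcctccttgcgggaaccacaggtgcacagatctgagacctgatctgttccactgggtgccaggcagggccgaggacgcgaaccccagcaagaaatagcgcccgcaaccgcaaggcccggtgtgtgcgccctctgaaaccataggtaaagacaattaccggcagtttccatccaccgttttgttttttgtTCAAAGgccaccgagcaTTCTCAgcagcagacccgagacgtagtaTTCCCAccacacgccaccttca

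Upstream of Lef1 there were 8 peaks, all intergenic and all more than 1 kb from any start, between 4.2 and 96.1 kb before the outermost start and from 320 to 987 bp wide. TGGGAA was present in 1 of these, 5 others held TGAGAA alone, and 2 had neither, beside 39.2% and 21.7% of all peaks more than 1 kb from a start for the first and the second of these classes. The exception was the outermost, at chr3:130716904-130717763 (860 bp), which also held 4 RUNX, 3 CTTTGA and 2 GATA cores. Of 3897 like-width peaks, 0.949% had as many RUNX cores and 2.18% as many CTTTGA cores. This peak was picked out after its values were seen, so these shares describe it and are not a test. Its core-rich stretch is shown with 2 TCF/LEF cores, 3 RUNX cores and the RBPJ core in capitals, in that order and on either strand, and 2 of the RUNX cores are separated by only a pair of bases.
Lef1 96.1 kb upstream, chr3:130717293-130717592, plus strand: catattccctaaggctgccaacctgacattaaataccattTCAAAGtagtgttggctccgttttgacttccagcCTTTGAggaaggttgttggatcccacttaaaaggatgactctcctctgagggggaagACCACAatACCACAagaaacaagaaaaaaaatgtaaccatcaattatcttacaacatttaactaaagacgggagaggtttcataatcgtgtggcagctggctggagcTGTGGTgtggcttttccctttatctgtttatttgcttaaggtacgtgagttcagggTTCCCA

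**Figure D3:**
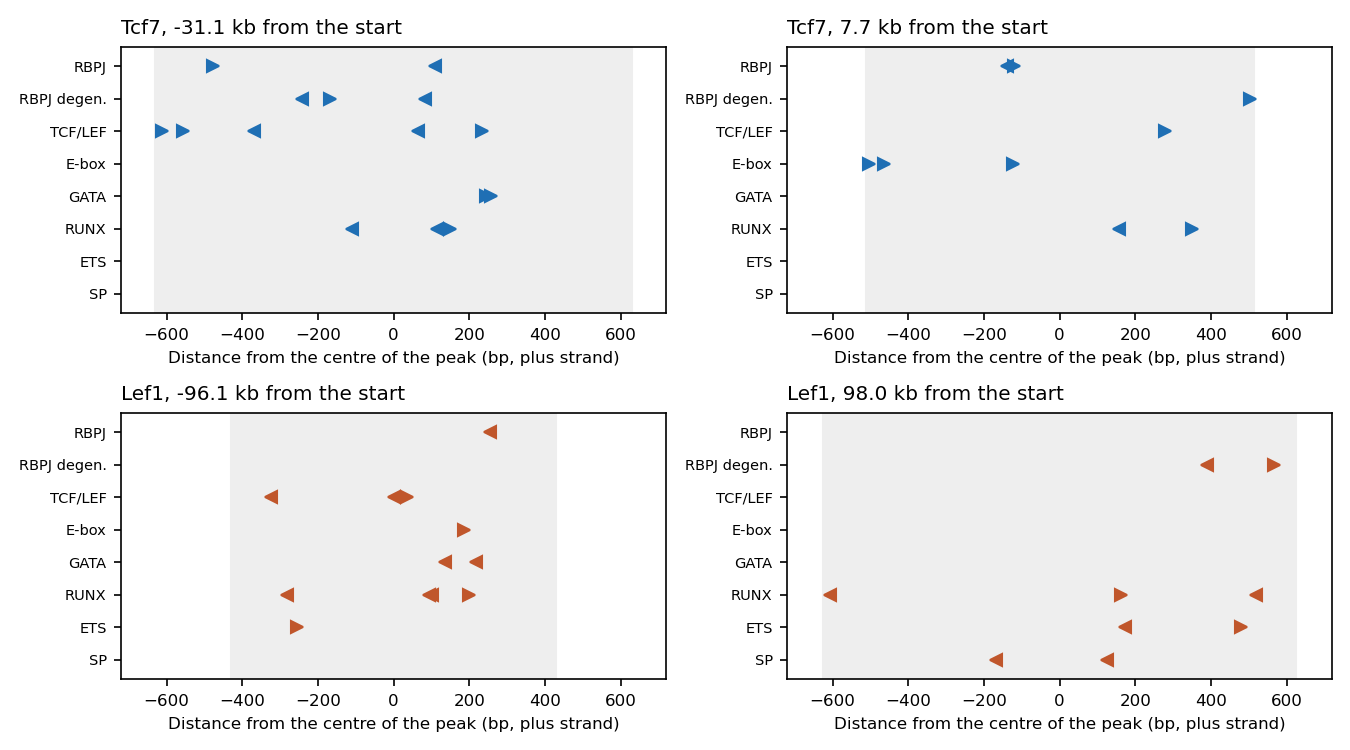
Positions of motif cores in the 4 peaks whose sequences are shown, at Tcf7 (top) and Lef1 (bottom). The x axis is the distance in bp from the centre of the peak on the plus strand, rows are motif cores, arrowheads point in the strand of the core and the grey area is the extent of the peak. The Tcf7 peak 31.1 kb upstream (top left) has 5 TCF/LEF cores, and the Lef1 peak in intron 11 (bottom right) has no RBPJ core in its canonical form.

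Downstream of Tcf7 there were 4 peaks, between 36.7 and 62.7 kb from the outermost start and from 280 to 933 bp wide, and 2 of them held TGGGAA. They comprised the Skp1a promoter, a peak over a Skp1a exon and 2 peaks inside an intron of Gm16953. Downstream of Lef1 there were 3 peaks, from 454 to 1150 bp wide, which were the Hadh promoter and 2 within Hadh, the latter with 1 TGGGAA each.

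TGGGAA was in 13 of 20 peaks at Tcf7 (65%) and in 4 of 16 at Lef1 (25%), beside 42.5% of all peaks. These counts moved with the extent searched: in the central 200 bp of the peaks they were 4 at Tcf7 and 1 at Lef1, and with 250 bp added at either end 15 and 8. With 200 kb to either side of the genes, a setting chosen after seeing the data, 16 of 28 peaks at Tcf7 (57.1%) and 8 of 21 at Lef1 (38.1%) held TGGGAA. Peaks of like width to the members held it in 42.1% on average for Tcf7 and 44.2% for Lef1. TGAGAA was in 10 of 20 at Tcf7 (50%) and 11 of 16 at Lef1 (68.8%), beside 37.3% of all peaks. With either form counted, 17 of 20 and 13 of 16 peaks were positive, beside 62.5% of all peaks.

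Counted per length of peak, TGGGAA occurred 1.52 times per kb at Tcf7, 0.36 times at Lef1 and 0.89 times over all peaks. TGAGAA occurred 0.99, 1.54 and 0.76 times per kb in the same order. Outside the peaks of the windows TGGGAA had nearly equal densities, 0.97 per kb at Tcf7 and 0.99 at Lef1. Peaks held 20 of 232 TGGGAA cores in the Tcf7 window (8.62%) and 4 of 305 in the Lef1 window (1.31%). Of the 20 cores at Tcf7, 5 were in the Vdac1 promoter alone, a number reached by 0.728% of like-width peaks. That peak was singled out for its number of cores, so the share describes it and is not a test. Within 100 bp of the centre of a peak lay 4 of the 20, and 1 of the 4 at Lef1. How often the cores of all peaks lie so near a centre was not counted.

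Among the 6248 coding genes with at least 10 peaks in their window, the median share of peaks with TGGGAA was 45.0%. The share at Tcf7 was reached or exceeded by 7.47% of these genes, and a share as low as that of Lef1 or lower was found for 8.64%. For TGAGAA the share at Lef1 was reached by 1.52% of genes and that at Tcf7 by 18.4%. The difference between the loci was not tested, since a locus is a single case and its peaks are not replicates.

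No head-to-head pair of TGGGAA at 15 to 17 bp occurred in a peak of either locus, nor anywhere in the windows. Over all peaks 0.0277% held such a pair. High-affinity cores (CGTGGGAA or TGTGGGAA) were in 0 of 36 peaks, beside 6.45% of all peaks, while the windows as a whole held 20 at Tcf7 and 25 at Lef1, all outside peaks.

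The TCF/LEF core CTTTGA, the site of the proteins that these genes encode, was in 13 of 20 peaks at Tcf7 (65%) and 6 of 16 at Lef1 (37.5%), beside 33.2% of all peaks. It occurred 1.67 times per kb of peak at Tcf7, 0.81 times at Lef1 and 0.65 times over all peaks. Of the 6248 genes with at least 10 peaks, 0.752% had a share as high as Tcf7, and 31.2% one as high as Lef1. At Tcf7 9 of 20 peaks held both CTTTGA and TGGGAA, and at Lef1 2 of 16, beside 15% of all peaks.

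The RUNX core TGTGGT was in 8 of 20 peaks at Tcf7 (40%) and 11 of 16 at Lef1 (68.8%), beside 41.4% of all peaks. A share as high as that of Lef1 was found for 2.45% of the genes with at least 10 peaks. E-boxes, the site of E proteins such as those encoded by Tcf3 and Tcf12, were in 11 of 20 peaks at Tcf7 and 9 of 16 at Lef1, beside 42.7% of all peaks. The GATA core AGATAA was in 4 peaks at each locus, beside 20.2%, and the ETS core AGGAAGT in 3 peaks at each, beside 23.3%. The SP core GGGCGG was in 6 of 20 and 7 of 16 peaks, beside 38.7%. These motifs are short, and a match is a description of letters and not of a bound site.

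**Figure D4:**
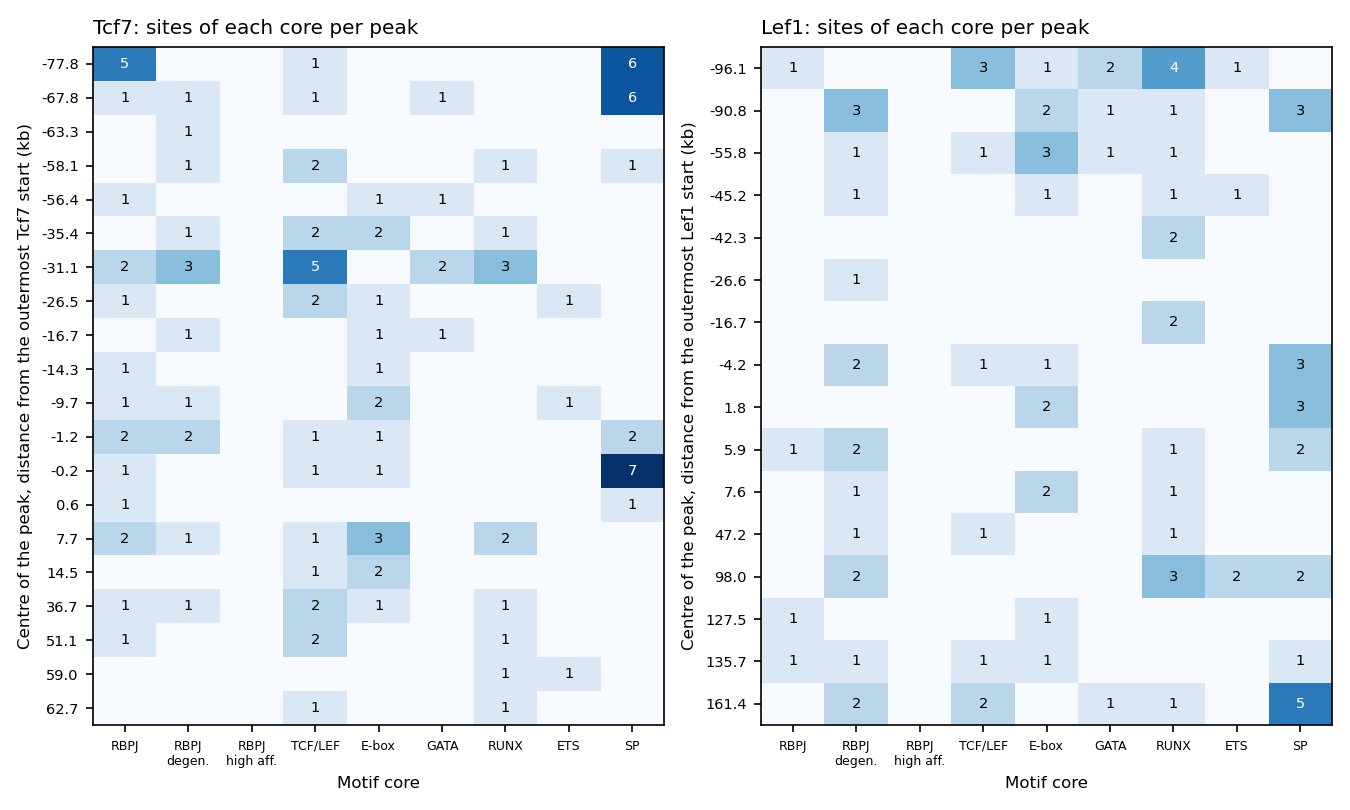
Number of cores of each motif (columns) in each peak (rows, named by the distance in kb of the centre from the outermost start) at Tcf7 (left) and Lef1 (right). Darker blue is a higher number, and an empty cell is 0. The first column is filled in 13 rows at Tcf7 and 4 at Lef1, and the third is empty in all 36.

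To place the loci among related genes, peaks were counted around 18 other genes of the TCF/LEF pathway and 19 genes of T-cell development. In the pathway list the median was 3.39 peaks per 100 kb, from 0.29 at Tle4 to 9.67 at Aes, and 14 of 18 had a peak within 1 kb of a start. Tcf7 was exceeded by 3 of these genes, Aes, Tle2 and Pygo2, and Lef1 by 5. The other family members were less densely covered, with 4.13 peaks per 100 kb at Tcf7l1 and 0.51 at Tcf7l2, which had no peak within 1 kb of a start. Ctnnb1, which encodes β-catenin, had 3.46.

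In the T-lineage list the median was 5.44 peaks per 100 kb, from 1.19 at Tox to 8.89 at Notch1, and 18 of 19 genes had a peak within 1 kb of a start, with Il2ra the exception. Ptcra, which encodes the pre-T-cell receptor alpha chain, and Cd3e, a subunit of the T-cell receptor complex, both had such a peak. Notch1 and Ptcra exceeded Tcf7, and 11 of 19 exceeded Lef1. The nearest genes in density to Tcf7 were Ptcra (8.68), Pygo2 (8.78) and Tle2 (8.78), and those nearest to Lef1 were the Notch target Hes1 (4.92), Notch3 (5.28) and Pygo1 (5.30). Density depends on neighbouring genes too, since Aes and Tle2 lie beside each other in 1 gene-rich stretch of chromosome 10 and share peaks.

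**Figure D5:**
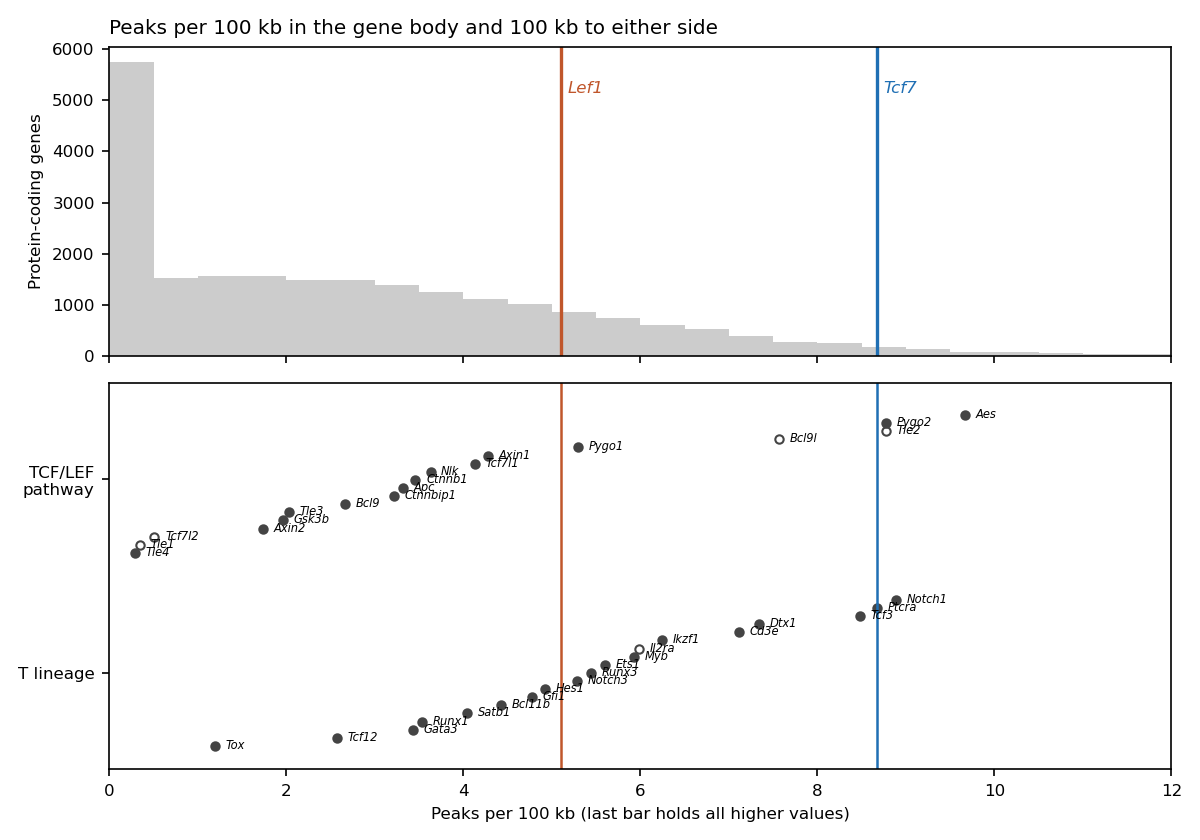
Peaks per 100 kb in the gene body and 100 kb to either side (x axis) for all 22380 protein-coding genes (top, number of genes per 0.5) and for each gene of the 2 lists (bottom, filled where a peak lies within 1 kb of a start, open where none does). Lines mark Lef1 at 5.10 and Tcf7 at 8.67, and within each list genes are stacked in order of density.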

How the data were processed

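ATAC-Seq libraries (3 GSI, 3 DMSO, 24 h) were made from Beko cells with a purchased kit. Per the study's methods and the labels, the authors aligned trimmed reads to mm9 with HISAT2 2.2.1, reporting 1 alignment for each read, and used Picard to remove duplicates. MACS2 called peaks without input in each library, MSPC combined them, and peaks seen in 3 of 6 libraries outside blacklisted regions were retained. Reads from repeats are thereby placed at 1 of several equal positions. The deposited values are peak coordinates in bp, merged over both treatments, with 0 columns per sample.

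Starts were read as counted from 0 and are printed from 1. The reference was NCBIM37 (the assembly also named mm9) with GENCODE vM1, and 0 peaks ran beyond a chromosome. Promoter peaks lay within 1 kb of any transcript start, motifs were searched as exact words on both strands, distances ran from the outermost start to the centre of the peak, and annotation was read at the centre. Like-width peaks differed by at most 10%, and runs joined peaks with gaps of up to 5 kb. No test was run, because the list has no value per library. Python 3.11.15, numpy 2.4.6 and matplotlib 3.10.9 were used, and the search functions were tested on simulated sequences.

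Named items follow a rule: genes with a start in either window, the 2 gene lists with the 3 nearest in density to each member, and peaks at promoters, in gene bodies, upstream of Tcf7, or with 2 or more TGGGAA cores. The outermost Lef1 peak and its sequence were added after its values were seen. The members, gene lists and motifs were chosen with earlier results of these data known. Gfi1 and Ptcra stay in the T-lineage list although GENCODE vM1 does not type them as protein-coding.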

Additional observations from a re-analysis of the deposited data

How the results depend on the processing

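No paired analysis was possible because peaks carry no value for a single library, and libraries could not be left out in turn for the same reason. Of 32 alternatives, 21 stayed within 1.5 times the main count and 11 did not. Requiring a width of at least 500 bp left 12 peaks at Tcf7 and 10 at Lef1, and 2 with TGGGAA at Lef1. With the start required inside the peak, promoter peaks numbered 4 at Tcf7 and 1 at Lef1, and within 5 kb there were 4 at Lef1. Searching the central 200 bp left 4 peaks with TGGGAA at Tcf7 and 1 at Lef1. Adding 250 bp at either end gave 8 at Lef1, and counting TGAGAA too gave 13. No share over all peaks was counted for the central 200 bp or the added 250 bp. A window of 200 kb, an alternative for the motif chosen after seeing the data, gave 8 peaks with TGGGAA of 21 at Lef1 and 16 of 28 at Tcf7. The count of peaks with TGGGAA thus depends on the extent searched at both loci, and at Lef1 also on the window, the minimum width and the form of the core, whereas counts of peaks with windows of 50 and 200 kb stayed within that limit. Pairs remained at 0 in peaks with 1 mismatch and with spacings of 12 to 20 bp. A merged list cannot show which peaks would be found again in other libraries.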
